A study of Mus musculus with 9 samples.

Results

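The leukocyte lineage markers are 39 mouse genes, chosen by name as genes that immune cells of 10 kinds are known by. The choice was made with earlier results of these data known, and the genes were read here in whole uterus. They comprise 2 pan-leukocyte genes, 4 shared myeloid genes, 12 genes of macrophages and monocytes, 3 of neutrophils, 6 of T cells, 3 of B cells, 5 of natural killer (NK) and cytotoxic cells, 1 of mast cells, 1 of eosinophils and 2 of MHC class II antigen presentation. All 39 had a value among 35930 genes. The uteri came from immature C57BL/6 females primed with 1 mg progesterone once and 10 mg/kg estradiol daily over 3 days, and each horn then received 50 µl of embryo culture medium. In the arrested group that medium had been conditioned by 18 human embryos that stopped developing, in the competent group by 9 developmentally competent human embryos, and in the control group by none. Each group has 3 RNA sequencing libraries. Conditioned media were pooled, so embryos are not replicates. The age is 25 days in the sample labels and 21 days in the design text, and no source used here gives the interval between injection and collection. Nor do the labels tell whether the 3 libraries per group are 3 animals, so a p-value measures the spread between these libraries, which may be technical.

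Leukocytes reside in the uterus throughout life, and their makeup shifts with ovarian steroids and around implantation. Macrophages clear debris and present antigen, neutrophils enter under estrogen, NK cells become the main lymphocyte of the pregnant uterus, and mast cells and eosinophils are scattered through stroma and muscle. RNA of a whole organ mixes all of them with epithelium, stroma, muscle and vessels. In such bulk samples fewer cells of a type and less RNA per cell cannot be told apart.

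Expression is given in FPKM, the authors' measure of RNA level per transcript length and library size, summed over the annotated transcripts of a gene. The number of reads is unknown. Read coverage multiplied by transcript length came to 1635 to 1936 Mb in arrested, 1743 to 2471 Mb in competent and 1303 to 1766 Mb in control libraries. Profiles correlated across genes, which are not independent replicates, at r between 0.929 and 0.963 inside a group and between 0.927 and 0.961 across groups. A pair of arrested libraries stood apart. A first principal component, with 20.6% of the variance, put arrested library 3 at 60.6 and the other 8 between -21.1 and 10.8. Arrested library 2 held 978 FPKM of adipocyte markers in sum, against at most 145 FPKM in any other library. Values without these libraries are given beside many, not all, of the main medians, counts and differences of the arrested group.

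Of the 39 markers, 30 were tested. Another 7 averaged under 1 FPKM over the 9 libraries (Cd163, Csf3r, Cd3e, Cd4, Cd8a, Cd79a and Ms4a1), and Aif1 and Mpeg1 were left out as probable failed estimates, being listed at 0 in 1 or 2 libraries while the others averaged over 5 FPKM. No marker passed an adjusted p of 0.05 in limma's moderated test on log2(FPKM + 1), which understates differences of low genes. Against this count of 0 of 30 stands a background of 0.0914% of all 12039 genes called in arrested minus competent, 0.00831% in arrested minus control and 0.0249% in competent minus control. At an unadjusted p under 0.05 there were 8, 2 and 7 markers in these comparisons. With assembled transcripts added to the gene values, Itgam and Ms4a4b passed in arrested minus competent, and without control library 3 Itgam passed there. No marker was called under any of the other settings tried.

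The group that stood out by direction was the competent one. By mean log2(FPKM + 1), the arrested group was the lowest of the 3 groups for 7 of 30 tested markers, the competent group for 19 and the control group for 4. By mean FPKM, these counts were 6, 21 and 3. Over all genes tested, the lowest mean log2(FPKM + 1) was that of the arrested group for 38.2%, of the competent group for 35.6% and of the control group for 26.2%, and the lowest mean FPKM for 35.9%, 37.4% and 26.6%. In arrested minus competent, 22 markers were higher and 8 lower, with a median log2 difference of 0.34 beside -0.01 for all genes. In competent minus control, 6 were higher and 24 lower, with a median of -0.37 beside -0.01. In arrested minus control, 14 were higher and 16 lower, with a median of -0.03 beside -0.02. Both comparisons with the competent group use the same 3 competent libraries, so low values there enter each of them.

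The groups did not overlap for 9 markers in arrested minus competent. For 8 of these, 26.7% of the markers tested, every arrested library lay above every competent one, which held for 8.05% of all genes; the 8 are Fcer1g, Tyrobp, Cd2, Ms4a4b, Nkg7, Gzmb, Klrd1 and H2-Aa. Itgam alone lay below throughout (3.33% of markers, against a background of 9.20%). By unadjusted p, 7 markers were higher (23.3%, background 5.64%) and 1 was lower (3.33%, background 6.07%), a share of 26.7% in either direction beside 11.7% for all genes. In competent minus control, 6 markers lay below throughout (20.0%, background 8.40%) and 1 above (3.33%, background 7.05%). By unadjusted p there were again 6 lower (background 2.82%) and 1 higher (background 2.70%), a share of 23.3% in either direction beside 5.52% for all genes. In arrested minus control, S100a9 lay below throughout (3.33%, background 5.54%) and none above (background 3.59%). By unadjusted p, 2 were lower (6.67%, background 3.33%) and 0 higher (background 2.11%), a share of 6.67% in either direction beside 5.44% for all genes. With arrested library 2 left out, the arrested libraries lay above the competent ones for 10 markers (33.3%, background 11.9%) and below for 3 (10.0%, background 17.9%). With arrested library 3 left out, they lay above for 15 (50.0%, background 17.6%) and below for 2 (6.67%, background 14.4%). The markers are not independent replicates and were chosen with earlier results of these data known. The shares therefore describe the list and are not a test of it.

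**Figure D1:**
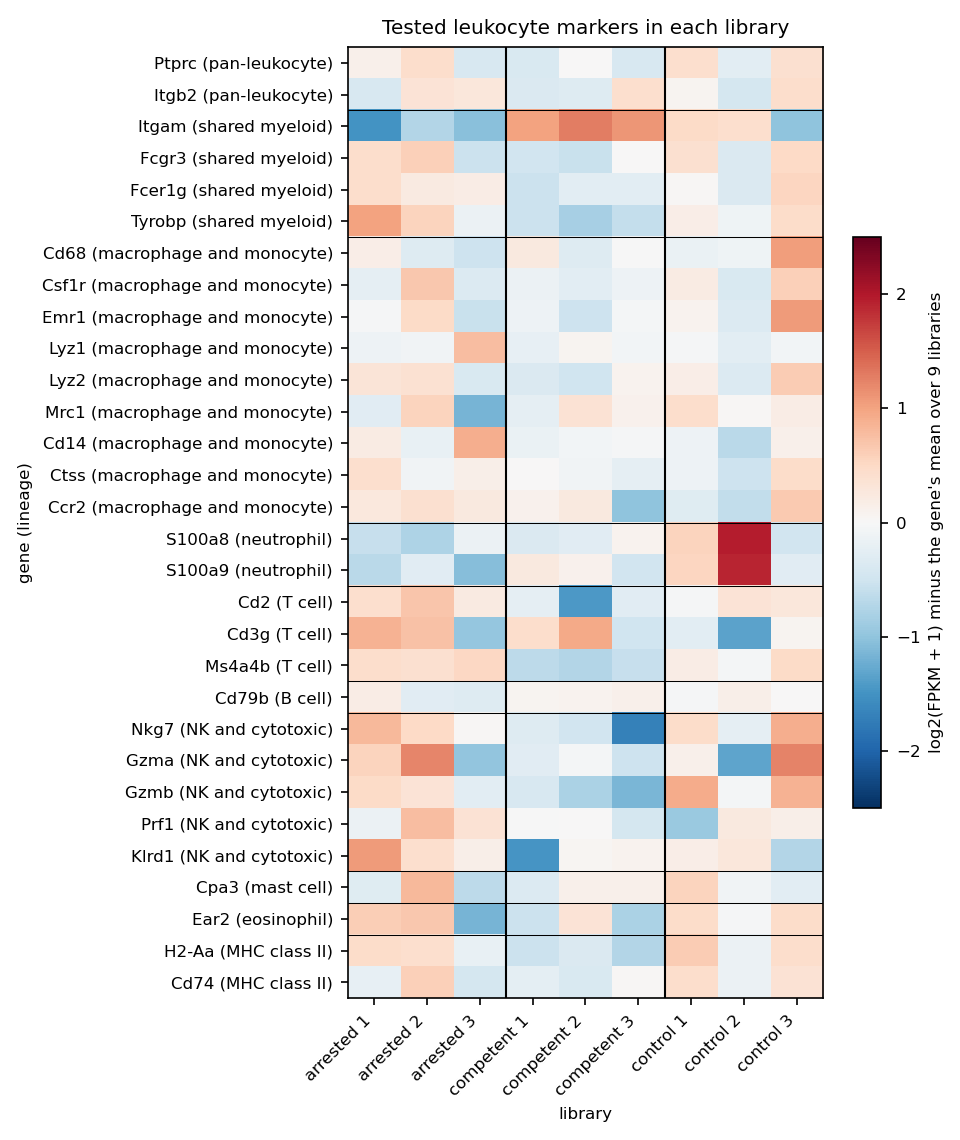
Each row is one of the 30 tested markers and each column a library (3 arrested, 3 competent, 3 control); colour is log2(FPKM + 1) minus the gene's mean over the 9 libraries. Competent columns are mostly pale blue with Itgam in red, and S100a8 and S100a9 are darkest in control library 2.

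Single libraries set part of these directions. Arrested library 2 and control library 3 each held the highest value of 9 tested markers, and arrested library 3 the lowest value of 8 and control library 2 the lowest of 7. Without arrested library 2, the arrested minus competent median was 0.08 with 18 of 31 markers higher. Aif1 and Mpeg1 had then entered the test and Prf1 had left it, so the set of markers also changed. Without arrested library 3, where Prf1 had left the test too, the median was 0.50 with 23 of 29 higher. The arrested minus control median was -0.22 without arrested library 2 and 0.19 without arrested library 3, so its sign depends on 1 library. It was also -0.28 without control library 2, 0.15 without control library 3 and 0.09 without control library 1. The competent minus control median kept its sign, at -0.58 without control library 2 and -0.19 without control library 3.

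**Figure D2:**
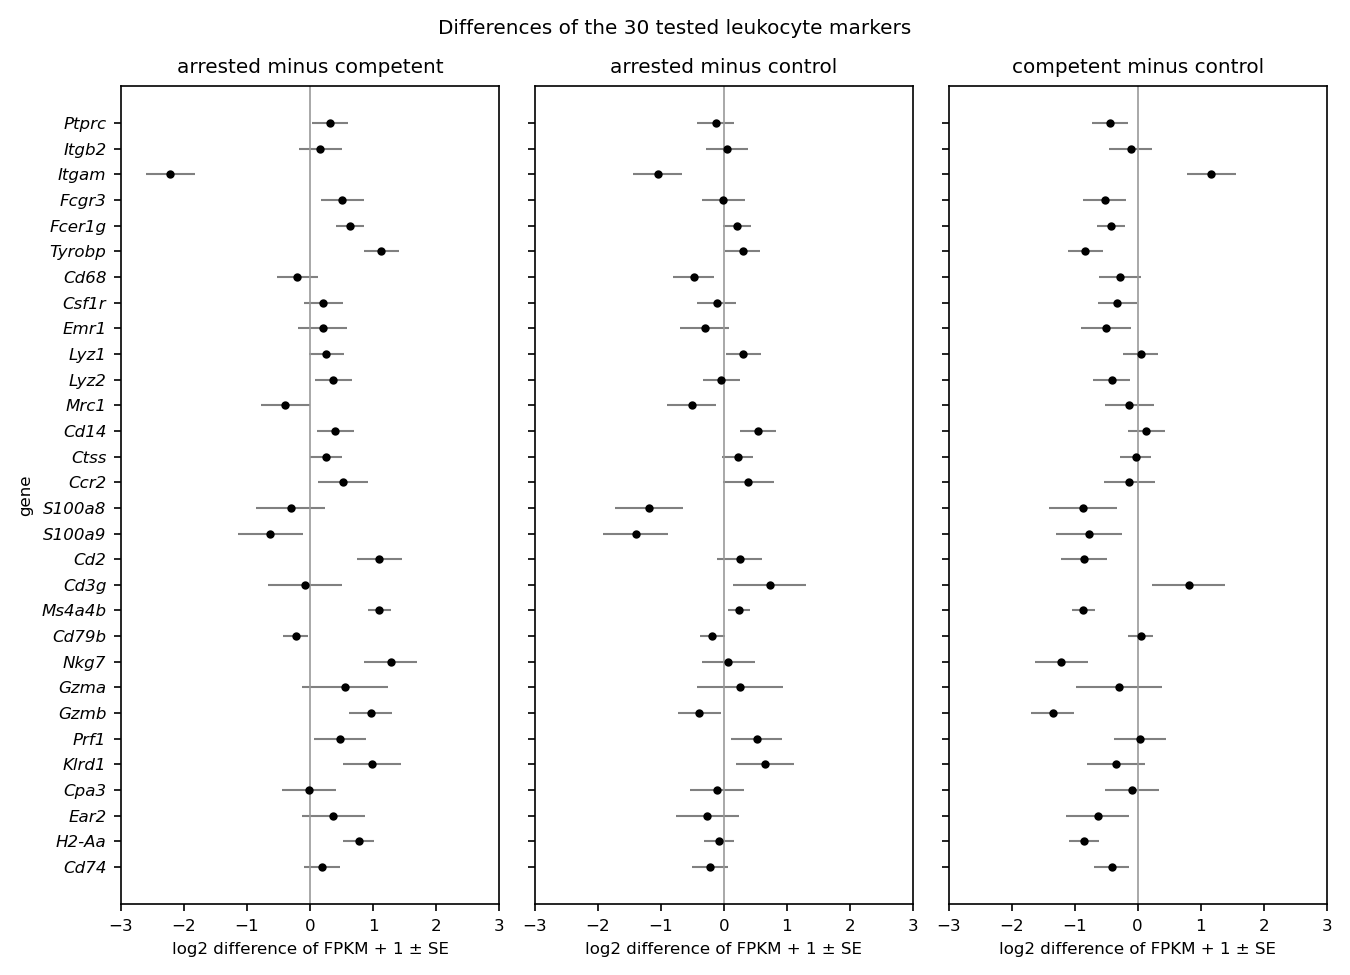
Log2 differences of FPKM + 1 (points) ± SE (bars) of the 30 tested markers, with arrested minus competent, arrested minus control and competent minus control from left to right. In the left panel 22 points lie right of 0 and Itgam lies farthest left at -2.22; in the right panel 24 points lie left of 0.

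Among the pan-leukocyte genes, Ptprc encodes CD45, the phosphatase on all nucleated blood cells. It stood at 4.07, 5.29 and 2.52 FPKM in arrested libraries 1 to 3, at 2.56, 3.64 and 2.52 FPKM in competent and at 5.18, 2.85 and 5.12 FPKM in control libraries. The groups overlapped. Itgb2, the β2 integrin chain shared by the leukocyte integrins, ranged from 1.98 to 4.45 FPKM with the groups overlapping. Ptprc RNA was thus present in every library, and neither gene had an unadjusted p under 0.05 in any comparison.

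Of 11 further pan-leukocyte genes, 10 were tested and none was called. In competent minus control 9 of these 10 were lower, with a median of -0.45, and in arrested minus competent 7 were higher (median 0.35). Cd52, a small surface glycoprotein of lymphocytes and myeloid cells, was the most abundant. It stood at 139, 96.0 and 69.0 FPKM in arrested, 47.4, 59.8 and 44.1 FPKM in competent and 84.9, 68.1 and 103 FPKM in control libraries, with the competent libraries below all others. Coro1a, an actin regulator of leukocytes, stood at 32.2, 35.6 and 18.0 FPKM in arrested, 13.7, 10.6 and 23.3 FPKM in competent and 22.0, 13.6 and 45.6 FPKM in control libraries, and its groups overlapped.

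The shared myeloid genes held Itgam, whose competent libraries lay above all others, and Tyrobp, whose competent libraries lay below all others. Itgam encodes the αM chain of complement receptor 3 (CD11b), an adhesion receptor of neutrophils, monocytes and macrophages that pairs with the Itgb2 chain. The gene spans chr7:135206154-135271674 on the plus strand in mm9. Its level was 2.51, 5.01 and 3.79 FPKM in arrested, 19.0, 23.0 and 20.3 FPKM in competent and 12.8, 12.3 and 3.92 FPKM in control libraries. Competent libraries lay above all others, and control library 3 lay among the arrested ones. The difference was -2.22 ± 0.39 in arrested minus competent (SE; limma adjusted p = 0.10), -1.05 ± 0.39 in arrested minus control (0.87) and 1.17 ± 0.39 in competent minus control (0.75). Without control library 3 the last of these was 0.68. Without arrested library 2 the first was -2.40 and without arrested library 3 it was -2.24. With assembled transcripts added its value was again -2.22, with a limma adjusted p of 0.043, and without control library 3 that p was 0.025.

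All Itgam signal came from protein-coding transcripts, and 4 of its 10 annotated transcripts carried it. The 4678-base transcript was at 2.51, 3.66 and 0 FPKM in arrested, 8.66, 7.55 and 10.8 FPKM in competent and 5.09, 5.63 and 2.71 FPKM in control libraries. Each of the 4 was higher in every competent library than in any arrested one. Its partner did not follow: Itgb2 stood at 2.04, 4.12 and 3.90 FPKM in arrested, 2.13, 2.23 and 4.38 FPKM in competent and 3.22, 1.98 and 4.45 FPKM in control libraries. In arrested minus competent the other 3 shared myeloid genes were higher, while S100a8, S100a9, Mrc1 and Cd68 were lower, as Itgam was. The promoter of Itgam is shown because it is the marker of largest difference. It is taken from RefSeq on GRCm38.p6, chr7:128062390-128062689, plus strand, 250 bases before to 50 after the start. Capitals mark the purine box GAGGAA, or its complement TTCCTC, a core bound by the myeloid and lymphoid factor PU.1.
Itgam promoter: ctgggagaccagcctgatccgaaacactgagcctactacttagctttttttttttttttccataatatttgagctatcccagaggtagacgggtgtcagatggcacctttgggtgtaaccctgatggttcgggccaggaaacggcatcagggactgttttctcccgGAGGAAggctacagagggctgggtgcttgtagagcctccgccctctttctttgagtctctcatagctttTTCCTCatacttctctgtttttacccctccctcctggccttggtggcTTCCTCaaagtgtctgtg
The letters occur 3 times here. On either strand they occur in 28.3% of all 32851 promoters of this length and in 16 of the 30 promoters matched to 28 of the 39 markers (53.3%). A match describes the letters and is not a binding site.

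**Figure D3:**
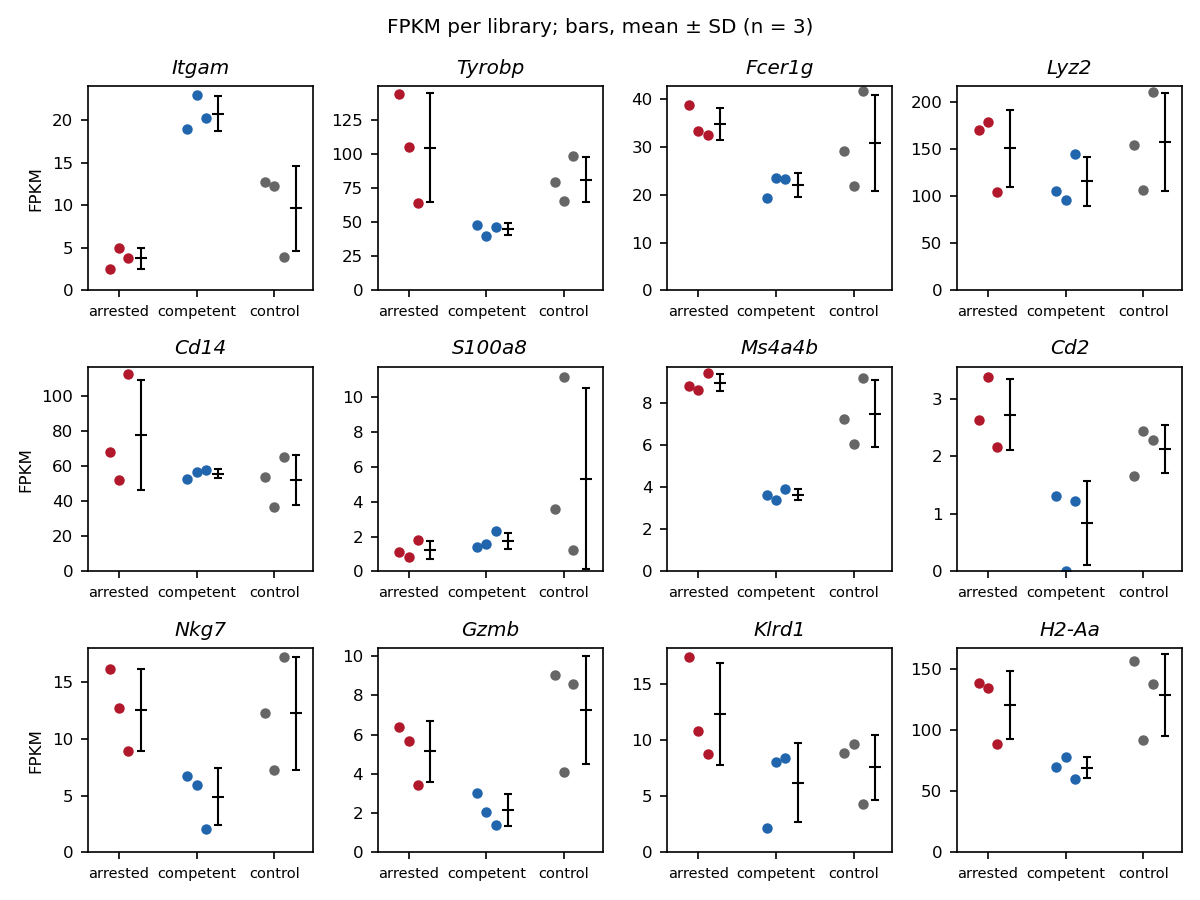
FPKM of 12 markers in each library, with arrested (red), competent (blue) and control (grey) from left to right; bars give mean ± SD (n = 3). Itgam is highest in the 3 competent libraries (19.0 to 23.0 FPKM), whereas Tyrobp, Ms4a4b, Gzmb, Nkg7, Cd2 and H2-Aa are lowest there.

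Tyrobp encodes DAP12, the signalling adaptor of activating receptors on myeloid and NK cells. It stood at 144, 105 and 64.2 FPKM in arrested, 48.2, 39.6 and 46.6 FPKM in competent and 79.2, 65.6 and 98.2 FPKM in control libraries. The competent libraries lay below all 6 others. The difference was 1.13 ± 0.28 in arrested minus competent (limma adjusted p = 0.21) and -0.83 ± 0.28 in competent minus control (0.75). The first was 1.09 without arrested library 2 and 1.44 without arrested library 3. With assembled transcripts added, control library 1 was at 377 FPKM for this gene and the competent minus control difference was -1.64. Fcer1g, the signalling chain of the IgE and IgG receptors, stood at 38.8, 33.4 and 32.5 FPKM in arrested, 19.3, 23.6 and 23.4 FPKM in competent and 29.2, 21.9 and 41.7 FPKM in control libraries. All arrested values were above all competent ones. The log2 difference between them was 0.63, against 0.66 without arrested library 2 and 0.68 without arrested library 3. Fcgr3, a low-affinity IgG receptor, ranged from 8.11 to 19.4 FPKM and its groups overlapped.

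The macrophage and monocyte genes included the most abundant marker and showed little separation of the groups. Lyz2, the lysozyme of macrophages, was the highest of all 39 markers. Its level was 170, 179 and 104 FPKM in arrested, 106, 96.0 and 145 FPKM in competent and 154, 107 and 211 FPKM in control libraries. Of 12 genes 9 were tested, none had an unadjusted p under 0.05 in any comparison, and no pair of groups was free of overlap. In arrested minus competent 7 of 9 were higher (median 0.25), in arrested minus control 4 of 9 (median -0.04), and in competent minus control 2 of 9 (median -0.13). The arrested minus competent median was -0.06 without arrested library 2, with 5 of 11 higher. Aif1 and Mpeg1 had then entered the test, so this median is not of the same 9 genes. The arrested minus control median was 0.08 without arrested library 3, with 6 of 9 higher.

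Cd14, the co-receptor for bacterial lipopolysaccharide, stood at 68.3, 52.1 and 113 FPKM in arrested, 53.0, 56.6 and 58.2 FPKM in competent and 54.0, 36.8 and 65.2 FPKM in control libraries. Arrested library 3 was the high one. The arrested minus control difference was 0.54 ± 0.29 (limma adjusted p = 0.91) and was 0.23 without that library. Cd68, a lysosomal membrane glycoprotein, stood at 33.3, 23.3 and 20.3 FPKM in arrested, 35.4, 23.5 and 29.3 FPKM in competent and 26.1, 27.4 and 61.6 FPKM in control libraries. Control library 3 stood high, and the arrested minus control difference of -0.48 ± 0.33 (limma adjusted p = 0.91) was -0.09 without it. Ctss, a lysosomal protease that trims the invariant chain, ranged from 23.1 to 46.7 FPKM. Csf1r, the receptor for the macrophage growth factor Csf1, ranged from 7.72 to 17.1 FPKM. The mannose receptor Mrc1 ranged from 1.90 to 8.55 FPKM, the F4/80 antigen Emr1 from 2.48 to 9.68 FPKM and the monocyte chemokine receptor Ccr2 from 1.53 to 7 FPKM. Csf1r overlaps the gene Hmgxb3 on the opposite strand, and the kit does not mark strand.

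Aif1, the actin-binding protein IBA1, was at 9.50, 0 and 4.04 FPKM in arrested, 12.4, 12.9 and 8.11 FPKM in competent and 11.9, 5.28 and 19.2 FPKM in control libraries. With assembled transcripts added it was at 19.3, 15.6 and 12.2 FPKM in arrested, 12.4, 15.6 and 10.6 FPKM in competent and 15, 14.4 and 19.2 FPKM in control libraries, so that the arrested mean was then above the competent one. Mpeg1, the pore-forming perforin-2 of macrophages, was at 1.58, 11.2 and 0 FPKM in arrested, 1.70, 6.63 and 0 FPKM in competent and 8.18, 5.72 and 3.39 FPKM in control libraries. The zeros can be failed estimates, since the other macrophage genes were present in the same libraries. The haemoglobin scavenger receptor Cd163 was between 0.225 and 1.62 FPKM.

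Lyz1, the lysozyme gene of Paneth cells next to Lyz2 on chromosome 10, stood between 1.90 and 5.01 FPKM, with the highest value in arrested library 3. The coding sequences of the pair are 447 bases each and 95.1% identical, so reads can be divided wrongly between them and the low Lyz1 level is uncertain. The first 180 coding bases in GENCODE vM1 hold 15 of the 22 differing bases, marked in capitals.
Lyz1 coding bases 1 to 180: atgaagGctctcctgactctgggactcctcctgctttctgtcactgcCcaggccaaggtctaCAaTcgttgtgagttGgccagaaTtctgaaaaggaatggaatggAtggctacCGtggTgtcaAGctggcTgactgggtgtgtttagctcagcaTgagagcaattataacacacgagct
Lyz2 coding bases 1 to 180: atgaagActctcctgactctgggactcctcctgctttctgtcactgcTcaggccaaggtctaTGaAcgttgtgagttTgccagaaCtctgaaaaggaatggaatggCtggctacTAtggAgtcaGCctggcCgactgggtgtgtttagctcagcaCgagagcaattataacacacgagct
Short reads that fall between the capitals could come from either gene.

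Of 12 further macrophage and monocyte genes, 10 were tested and none was called. In arrested minus competent 6 were higher (median 0.08), in arrested minus control 3 (median -0.39) and in competent minus control 1 (median -0.50). The arrested minus competent median was -0.18 with 3 of 10 higher without arrested library 2, and 0.31 with 10 of 10 higher without arrested library 3. Plac8, a cysteine-rich protein of myeloid cells, was at 735, 739 and 670 FPKM in arrested, 70.6, 206 and 359 FPKM in competent and 441, 273 and 1337 FPKM in control libraries. Arrested libraries were all above competent ones, and control libraries spread over both. Whether leukocytes are its source in these uteri was not tested. The complement chain C1qa, a product of tissue macrophages, was at 45, 58.3 and 38.7 FPKM in arrested, 41.8, 47.9 and 52.0 FPKM in competent and 61.9, 43.8 and 79.2 FPKM in control libraries, with overlap.

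The differences of the neutrophil genes rested in part on 1 library. S100a8 and S100a9 encode the calcium-binding subunits of calprotectin, which fills neutrophil cytosol. S100a8 stood at 1.09, 0.817 and 1.80 FPKM in arrested, 1.42, 1.56 and 2.30 FPKM in competent and 3.59, 11.2 and 1.23 FPKM in control libraries. S100a9 stood at 0.870, 1.47 and 0.431 FPKM in arrested, 2.55, 2.23 and 1.15 FPKM in competent and 3.37, 10.2 and 1.47 FPKM in control libraries. Control library 2 was highest for both, and the arrested values of S100a9 lay below the control ones, the nearest pair by less than the rounding. The arrested minus control difference was -1.40 ± 0.52 for S100a9 (limma adjusted p = 0.87) and -1.18 ± 0.54 for S100a8 (0.90). Without control library 2 these were -0.81 and -0.54. Coverage times length was 0.441 to 6.61 kb for S100a8, which is thin. Csf3r, the receptor for granulocyte colony-stimulating factor, was between 0 and 1.25 FPKM. None of 11 further neutrophil genes could be tested. The surface marker Ly6g was at 5.56, 0 and 0 FPKM in arrested, 0, 17.4 and 23.0 FPKM in competent and 10.7, 13.0 and 0 FPKM in control libraries, a pattern of probable failed estimates. The granule peroxidase Mpo was between 0 and 1.29 FPKM. Itgam, which neutrophils also carry, was highest in the competent libraries. Mean S100a8 was 1.24 FPKM in arrested, 1.76 FPKM in competent and 5.35 FPKM in control libraries. Mean S100a9 was 0.922, 1.98 and 5.02 FPKM in the same order. Whether neutrophils are a source of the Itgam RNA was not tested.

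The T cell genes did not speak with one voice, and the defining ones were near 0. Cd3e, a chain of the T cell receptor complex, was between 0.0545 and 0.224 FPKM, and the co-receptor Cd8a between 0.0175 and 0.142 FPKM. The co-receptor Cd4 was between 0 and 1.84 FPKM. Cd3g, another chain of the same complex, was higher, at 11.1, 9.94 and 2.37 FPKM in arrested, 7.98, 11.7 and 3.67 FPKM in competent and 4.45, 1.61 and 5.90 FPKM in control libraries. Over the 9 libraries, 37.2% of this came from protein-coding transcripts. A 294-base retained-intron transcript made up 7.07, 7.11 and 2.37 FPKM in arrested, 5.81, 6.98 and 3.06 FPKM in competent and 4.45, 0 and 0 FPKM in control libraries. Cd3e, of the same complex, did not exceed 0.224 FPKM in the same libraries.

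Ms4a4b, a membrane protein of mouse T and NK cells, had the smallest p of all markers. It stood at 8.81, 8.62 and 9.39 FPKM in arrested, 3.63, 3.40 and 3.89 FPKM in competent and 7.23, 6.05 and 9.17 FPKM in control libraries. The competent libraries lay below all others. The difference was 1.10 ± 0.18 in arrested minus competent (limma adjusted p = 0.084) and -0.86 ± 0.18 in competent minus control (0.56). Without arrested library 2 the first was 1.12, and without arrested library 3 it was 1.07. With assembled transcripts added it was again 1.10, with a limma adjusted p of 0.043. Protein-coding transcripts gave 66.3% of the signal. The 1244-base coding transcript alone was at 8.81, 8.62 and 3.87 FPKM in arrested, 3.63, 3.40 and 2.15 FPKM in competent and 3.35, 3.26 and 2.82 FPKM in control libraries. On that transcript the competent minus control difference was -0.05, and arrested minus competent was 0.95. The rest was in 2 retained-intron transcripts, present in arrested library 3, competent library 3 and the control libraries. The promoter is printed beside that of Itgam, since the pair had the smallest p-values and opposite directions. It lies on GRCm38.p6 at chr19:11443308-11443607, plus strand, with the purine box in capitals.
Ms4a4b promoter: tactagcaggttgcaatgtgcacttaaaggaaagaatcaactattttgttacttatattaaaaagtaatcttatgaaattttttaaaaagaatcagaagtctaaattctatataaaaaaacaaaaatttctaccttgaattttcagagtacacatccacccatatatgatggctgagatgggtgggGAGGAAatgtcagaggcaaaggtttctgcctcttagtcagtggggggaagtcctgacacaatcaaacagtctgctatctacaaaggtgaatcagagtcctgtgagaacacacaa
The box occurs 1 time in it.

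**Figure D4:**
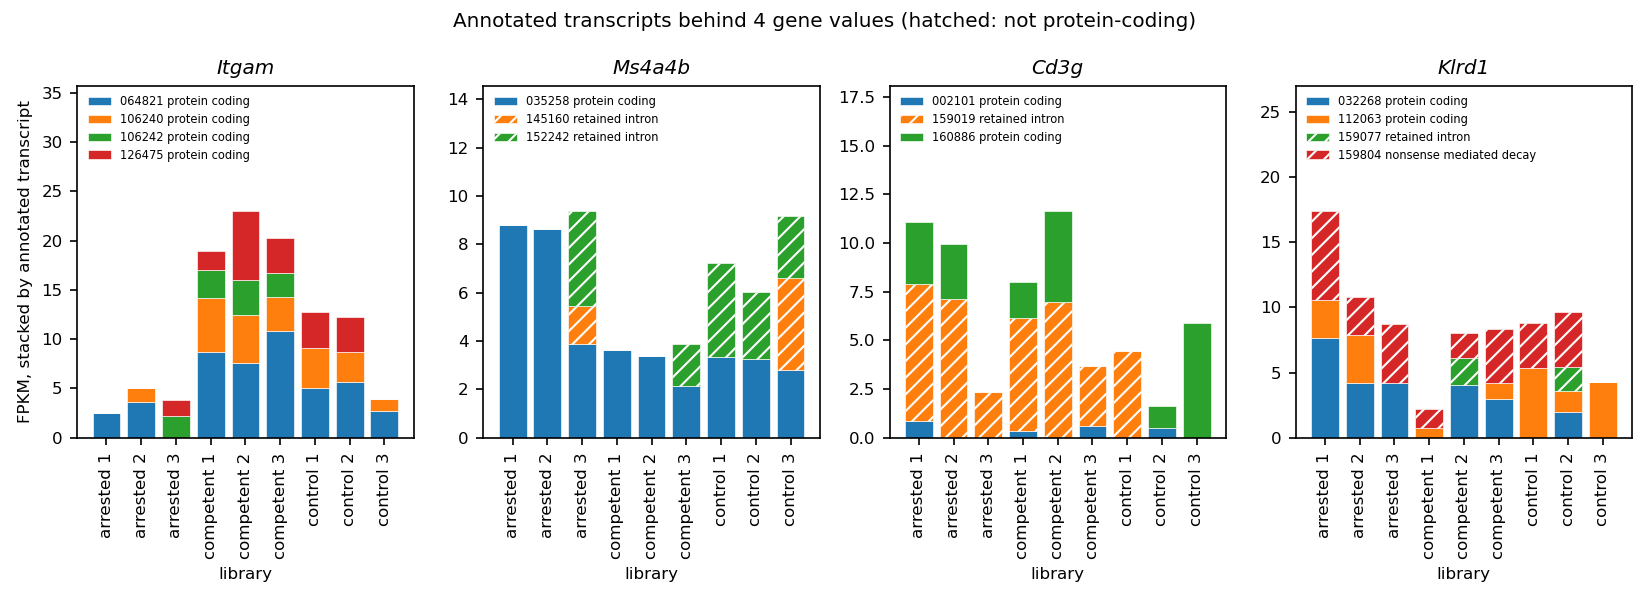
FPKM of annotated transcripts, stacked, for Itgam, Ms4a4b, Cd3g and Klrd1 in each library (arrested, competent, control); hatched segments are not protein-coding. Itgam is made of 4 coding transcripts, whereas Cd3g is largely a retained-intron transcript in arrested and competent libraries and in control library 1, and Ms4a4b in control libraries is in part.

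Cd2, an adhesion receptor of T and NK cells, was at 2.63, 3.38 and 2.16 FPKM in arrested, 1.31, 0 and 1.22 FPKM in competent and 1.65, 2.43 and 2.29 FPKM in control libraries. Competent libraries were below all others. The arrested minus competent difference was 1.10 ± 0.36 (limma adjusted p = 0.32). It was 0.70 without competent library 2, where the gene is listed at 0, 0.97 without arrested library 2 and 1.21 without arrested library 3. Of 10 further T cell genes only Lck was tested. This kinase of T and NK cells was at 3.54, 9.74 and 1.21 FPKM in arrested, 6.03, 3.68 and 7.28 FPKM in competent and 6.16, 1.22 and 10.6 FPKM in control libraries, and its groups overlapped. Cd3d, a further chain of the receptor complex, was between 0.246 and 1.57 FPKM, with a mean of 0.735 FPKM, below the minimum for testing. Its competent libraries lay below all others, though narrowly, with competent library 2 at 0.45 FPKM and arrested library 3 at 0.463 FPKM.

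B cell genes gave no clear signal. Cd79b, a signalling chain of the B cell receptor, was at 4.41, 2.89 and 2.81 FPKM in arrested, 3.97, 4.07 and 4.17 FPKM in competent and 3.63, 4.27 and 3.78 FPKM in control libraries, with overlap. Its partner Cd79a was between 0 and 0.819 FPKM and the CD20 gene Ms4a1 between 0 and 0.148 FPKM, so the label of the lineage rests on Cd79b alone. Of 8 further B and plasma cell genes only Igj was tested. This joining chain of secreted antibody was at 7.48, 29.4 and 10.2 FPKM in arrested, 2.10, 3.29 and 1.02 FPKM in competent and 17.4, 10.2 and 2.22 FPKM in control libraries. Arrested libraries lay above competent ones, by a log2 difference of 2.25, which was 1.70 without arrested library 2. The Fc receptor-like gene Fcrla was between 0.190 and 1.54 FPKM.

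The NK and cytotoxic genes pointed one way in arrested minus competent, where all 5 were higher (median 0.96). In arrested minus control 4 of 5 were higher (median 0.26), and in competent minus control 1 of 5 (median -0.34). With arrested library 2 left out, which removed Prf1 from the test, 4 of 4 were higher in arrested minus competent (median 0.97) and 2 of 4 in arrested minus control (median -0.09). Nkg7, a granule membrane protein of NK and cytotoxic T cells, stood at 16.1, 12.7 and 8.89 FPKM in arrested, 6.75, 5.97 and 2.02 FPKM in competent and 12.3, 7.27 and 17.2 FPKM in control libraries. Competent libraries were below all others. The difference was 1.28 ± 0.42 in arrested minus competent (limma adjusted p = 0.32) and -1.21 ± 0.42 in competent minus control (0.75). Without competent library 3 these were 0.85 and -0.78. Without arrested library 2 the first was 1.25, and without arrested library 3 it was 1.49.

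Gzmb, a serine protease delivered into target cells, was at 6.37, 5.68 and 3.41 FPKM in arrested, 3.02, 2.06 and 1.40 FPKM in competent and 9.03, 4.09 and 8.59 FPKM in control libraries. Competent values again lay below all others. The competent minus control difference was -1.35 ± 0.34 (limma adjusted p = 0.67), and it was -0.80 with assembled transcripts added. The competent libraries were then at 3.02, 4.09 and 3.49 FPKM, which overlapped with arrested library 3 at 3.41 FPKM and control library 2 at 4.09 FPKM, so the separation was lost in both comparisons; the other 8 markers whose arrested and competent libraries did not overlap kept that separation with assembled transcripts added. Its arrested minus competent difference was 0.96, against 0.88 without arrested library 2 and 1.18 without arrested library 3. Klrd1, the CD94 receptor chain, stood at 17.4, 10.8 and 8.76 FPKM in arrested, 2.18, 8.07 and 8.38 FPKM in competent and 8.80, 9.63 and 4.26 FPKM in control libraries. Arrested libraries were above competent ones, and control libraries overlapped with both. The arrested minus competent difference was 0.99, against 1.05 without arrested library 2 and 1.19 without arrested library 3. Its arrested minus control difference was 0.65 ± 0.46 (limma adjusted p = 0.91). It was 0.33 without control library 3 and 0.39 without arrested library 1. Protein-coding transcripts gave 57.3% of the Klrd1 signal. Alone they were at 10.5, 7.91 and 4.21 FPKM in arrested, 0.785, 4.02 and 4.2 FPKM in competent and 5.37, 3.57 and 4.26 FPKM in control libraries. On these the nearest arrested and competent libraries all but touched. The tryptase-like granzyme Gzma ranged from 1.70 to 14.9 FPKM with overlap. The pore-forming protein Prf1 was at 0.721, 2.29 and 1.46 FPKM in arrested, 0.907, 0.934 and 0.408 FPKM in competent and 0, 1.27 and 1.11 FPKM in control libraries.

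Of 9 further NK and cytotoxic genes, 7 were tested and none was called. All 7 were higher in arrested minus competent (median 0.76), 5 in arrested minus control (median 0.15) and 1 in competent minus control (median -0.50). The first median was 0.83 without arrested library 2, again with 7 higher, and the second was -0.09, with 3 higher. The chemokine Ccl5 was at 34.9, 29.3 and 10.9 FPKM in arrested, 15.3, 15.5 and 15.7 FPKM in competent and 21.3, 14.2 and 36.7 FPKM in control libraries, with overlap. Gzmc, a granzyme known from mouse uterine NK cells, was at 18.1, 11.7 and 12 FPKM in arrested, 6.35, 10.3 and 7.39 FPKM in competent and 20.9, 13.3 and 19.5 FPKM in control libraries. Its competent libraries lay below all others.

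Cpa3 and Ear2, the mast cell and eosinophil markers, were low. Cpa3, the carboxypeptidase of mast cell granules, was at 0.733, 2.76 and 0.363 FPKM in arrested, 0.694, 1.34 and 1.32 FPKM in competent and 2.14, 1.02 and 0.765 FPKM in control libraries. Arrested library 2, which also held the adipocyte RNA, was the highest. Of 8 further mast cell genes 5 were tested and none was called. Hdc, which makes histamine, was at 35.8, 30.5 and 155 FPKM in arrested, 22.1, 15.5 and 18.4 FPKM in competent and 24.6, 17.1 and 15.9 FPKM in control libraries. Its arrested minus competent difference was 1.54, and 0.81 without arrested library 3. Hdc did not follow Cpa3 across the libraries. In arrested libraries the tryptase Tpsb2 was at 0.673, 4.26 and 0.74 FPKM. Cma1 was at 0.603, 4.65 and 1.12 FPKM there, and Mcpt4 at 0.668, 3.94 and 0.662 FPKM. Within that group these genes were highest in library 2, as Cpa3 was. Kit, at 0.311, 1.11 and 3.27 FPKM, was highest in library 3, as Hdc was. Over all libraries Tpsb2 was highest in competent library 3, at 5.04 FPKM. Ear2, an eosinophil-associated ribonuclease, was at 5.91, 6.19 and 1.02 FPKM in arrested, 2.10, 4.72 and 1.62 FPKM in competent and 5.25, 3.43 and 5.19 FPKM in control libraries. It is 97.0% identical in coding sequence to Ear10 and 95.1% to Ear1, so its value is uncertain. Of 7 further eosinophil genes none could be tested. Ear10 was between 0 and 1.13 FPKM and the interleukin-5 receptor Il5ra between 0 and 0.720 FPKM, so the eosinophil label rests on Ear2 alone.

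Among MHC class II genes, H2-Aa encodes the α chain of I-A, which displays peptides to helper T cells. It stood at 139, 135 and 89.0 FPKM in arrested, 69.8, 78.2 and 60.5 FPKM in competent and 157, 91.8 and 138 FPKM in control libraries. Competent libraries were below all others. The difference was 0.77 ± 0.24 in arrested minus competent (limma adjusted p = 0.32) and -0.85 ± 0.24 in competent minus control (0.72). Without arrested library 2 the first was 0.68, and without arrested library 3 it was 0.98. Protein-coding transcripts gave 52.1% of the signal, and that coding transcript alone was at 73.5, 66.2 and 53.4 FPKM in arrested, 35.7, 42.3 and 36.8 FPKM in competent and 78.4, 60.9 and 52.5 FPKM in control libraries. It too was lowest in the competent libraries. H2-Aa overlaps H2-Ab1 on the opposite strand, and without strand their shared reads cannot be told apart. Cd74, the invariant chain that escorts class II molecules, was at 55.9, 98.0 and 47.5 FPKM in arrested, 54.2, 49.2 and 65.6 FPKM in competent and 87.2, 57.7 and 82.9 FPKM in control libraries, with overlap.

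The promoter of H2-Aa is shown because class II promoters share an inverted CCAAT element, the Y box. It lies on GRCm38.p6 at chr17:34287774-34288073, minus strand, and capitals mark the core TGATTGG.
H2-Aa promoter: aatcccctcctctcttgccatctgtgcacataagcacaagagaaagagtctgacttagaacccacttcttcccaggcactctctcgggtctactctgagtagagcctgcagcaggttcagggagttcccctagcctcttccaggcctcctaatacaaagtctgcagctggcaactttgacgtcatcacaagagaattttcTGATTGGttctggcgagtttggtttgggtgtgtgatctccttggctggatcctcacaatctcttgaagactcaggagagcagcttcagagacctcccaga
On either strand this core was in 7.82% of all promoters and in 4 of the 30 promoters of the markers (13.3%). Of 8 further class II genes 6 were tested and none was called. All 6 were higher in arrested minus competent (median 0.29) and lower in competent minus control (median -0.38). H2-Eb1, a β chain, was at 67.2, 101 and 61.5 FPKM in arrested, 57.5, 60.5 and 64.8 FPKM in competent and 101, 81.6 and 103 FPKM in control libraries. H2-Ab1, the partner of H2-Aa, was at 45.6, 67.6 and 39.1 FPKM in arrested, 42.1, 36.9 and 41.9 FPKM in competent and 66.0, 44.6 and 67.2 FPKM in control libraries. For both, competent libraries lay below the control libraries and overlapped with the arrested ones.

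Other cell types also varied between libraries, and their part in the marker values was not tested. Summed erythrocyte markers were 2091 to 4843 FPKM in arrested, 748 to 3967 FPKM in competent and 937 to 1501 FPKM in control libraries. All 5 tested erythrocyte genes were higher at an unadjusted p under 0.05 in arrested minus control (background 2.11%), and none was called. All 5 were also higher in competent minus control (median 0.85) and in arrested minus competent (median 0.77). Without arrested library 2, 4 of 5 were higher in arrested minus competent (median 0.51). Smooth muscle markers summed to 879 to 2163 FPKM in arrested, 1414 to 2770 FPKM in competent and 1614 to 1712 FPKM in control libraries, with all 7 tested lower in arrested minus competent (median -0.76, and -1.25 without arrested library 2) and all 7 higher in competent minus control (median 0.44). Epithelial markers summed to 1978 to 2888 FPKM in arrested, 2314 to 2638 FPKM in competent and 2194 to 2617 FPKM in control libraries. Their medians were -0.15 in arrested minus competent and 0.01 in competent minus control. The first was 0.03 without arrested library 2 and -0.11 without arrested library 3. Stromal fibroblast markers summed to 1248 to 2306 FPKM in arrested, 1285 to 1666 FPKM in competent and 1556 to 1763 FPKM in control libraries. Of 8 tested stromal genes, 6 were higher in arrested minus competent (median 0.34), against 4 of 8 without arrested library 2. In competent minus control 6 were lower (median -0.46), 4 of them without overlap (background 8.40%). The other 2, Col1a1 and Col1a2, were higher there, also without overlap (background 7.05%). Endothelial markers summed to 29.7 to 78.7 FPKM in arrested, 37.4 to 54.8 FPKM in competent and 51.7 to 58.7 FPKM in control libraries. Of 7 tested, 5 were higher in arrested minus competent (median 0.29) and 6 lower in competent minus control (median -0.31). Without arrested library 2, 4 of 7 were higher in arrested minus competent (median 0.14). Adipocyte markers summed to 1.10 to 978 FPKM in arrested, 1.42 to 145 FPKM in competent and 3.43 to 88.1 FPKM in control libraries. Mesothelial markers summed to 41.3 to 114 FPKM in arrested, 43.7 to 158 FPKM in competent and 34.9 to 73.0 FPKM in control libraries, and all 5 tested were higher in competent minus control (median 0.95). Relative to the 9-library mean, the mean log2 score over the 30 leukocyte markers was 0.16, 0.32 and -0.25 in arrested, -0.22, -0.15 and -0.26 in competent and 0.18, -0.09 and 0.32 in control libraries. Arrested library 3 thus lay with the competent libraries on this score.

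**Figure D5:**
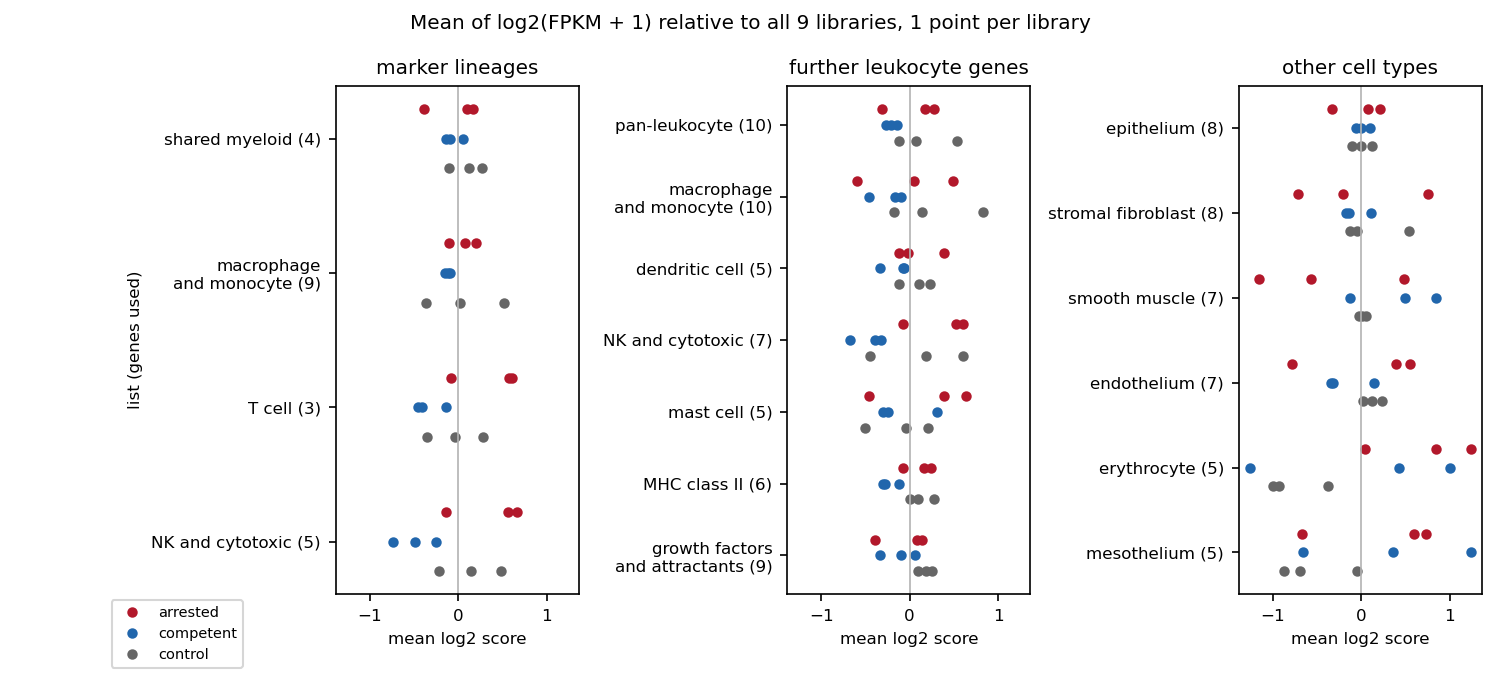
Mean log2(FPKM + 1) score of each list with at least 3 tested genes, relative to the 9-library mean, 1 point per library; arrested (red) above competent (blue) above control (grey) in each list, with the number of genes used in brackets. For the NK and cytotoxic markers competent libraries lie at -0.74 to -0.25, arrested ones at -0.14 to 0.66 and control ones at -0.22 to 0.48.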

How the data were processed

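Alignment to mm9 used Bowtie 0.12.2 and quantification used Cufflinks (version not given in the sources used here), per the submitters' processing notes. The values used are the authors' FPKM per transcript, as deposited. Coverage, also deposited, is the authors' signal of mean read depth per transcript, not scaled to library size. Of 92839 annotated transcripts, 73.4 to 74.7% were listed at 0 in a library, and 1356 not in GENCODE vM1 and 11 not listed in every library were left out. Of the annotated transcripts found in GENCODE vM1, 98.8% had its coordinates. A gene's value was the sum over its annotated transcripts, computed with Python 3.11.15, pandas 2.3.3 and numpy 2.4.6, without rescaling.

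Of 13333 genes averaging at least 1 FPKM, 1294 listed at 0 in some library while the others averaged over 5 FPKM were left out as probable failed estimates. The remaining 12039 entered limma 3.58.1 (R 4.3.3) as log2(FPKM + 1): 1 fit of 9 libraries, group means, moderation with a mean trend (9.02 degrees of freedom), 3 two-sided contrasts, Benjamini-Hochberg adjustment over all genes tested, threshold 0.05. The fit was tested on simulated data, drawn as independent normal values for each gene. These held no failed estimates and no outlying libraries, so the test does not cover those features. The members, lists, tests and alternatives were chosen with earlier results of these data known. Per-library values are given for the 6 markers of smallest p in each contrast, the most abundant of each lineage, those at 0 in some library and averaging at least 1 FPKM, and up to 2 most abundant genes of each further list; values of Itgb2, Fcer1g, Cd3g and Cd74 were added after they were seen. Alternatives were another pseudocount, filters, gene values and scaling, no mean trend, a replicate block, each library left out and, chosen after seeing the data, protein-coding transcripts alone.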

Additional observations from a re-analysis of the deposited data

How the results depend on the processing

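The 18 marker differences named in the report with their p are the 6 of smallest p in each comparison. Being picked from these same data, they would tend to keep their sign. They were recomputed under up to 21 settings, which gave 370 values. None reversed, 367 stayed on the same side of the threshold and 3 passed it: Itgam and Ms4a4b in arrested minus competent with assembled transcripts added, and Itgam without control library 3. Calls among the markers in arrested minus competent were thus 2 with assembled transcripts added and 0 to 1 with a library left out, and were 0 elsewhere and in both other comparisons.

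Calls among all genes were 11 in arrested minus competent, 1 in arrested minus control and 3 in competent minus control. In that order they were 6, 4 and 7 with no minimum FPKM, 18, 6 and 5 with failed estimates kept, 22, 6 and 7 where failed estimates were chosen with the groups known, 31, 1 and 1 with assembled transcripts added, 27, 1 and 1 with exon-based values, and 4, 0 and 2 with no mean trend. In arrested minus control they were 0 with the most abundant transcript alone and 0 with protein-coding transcripts alone. With a library left out they ranged from 0 to 38, from 0 to 5 and from 0 to 5. These counts do not say which genes were called, and the cause of the shifts was not tested.

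Same-numbered libraries of different groups deviated together at r = -0.0687 to 0.175, and not every pair exceeded 0.1. Differently numbered ones lay at r = -0.126 to 0.142. The ranges overlap, so they do not decide whether replicate numbers pair the libraries. With the replicate block, 0 genes were called in each comparison, and 8, 3 and 6 markers had an unadjusted p under 0.05 (26.7%, 10.0% and 20.0%, beside 12.1%, 5.71% and 5.94% of all genes). Depth in reads is unknown, and markers under about 1 FPKM rest on little coverage.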

Other observations

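Among 19 growth factors and attractants that act on leukocytes, 9 were tested and none was called. In arrested minus competent 5 were higher (median 0.11, and -0.05 without arrested library 2), in arrested minus control 4 (median -0.23) and in competent minus control 3 (median -0.20). Ccl8, a chemokine for monocytes, was the most abundant, at 94.1, 82.6 and 31.3 FPKM in arrested, 76.6, 75.9 and 97.7 FPKM in competent and 140, 96.4 and 122 FPKM in control libraries. Cxcl12, the ligand of Cxcr4, was at 70.1, 172 and 66.0 FPKM in arrested, 51.7, 79.5 and 85.2 FPKM in competent and 81.5, 88.5 and 74.3 FPKM in control libraries, with overlap. Arrested library 3 was the lowest for Ccl8 and arrested library 2 the highest for Cxcl12.

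Of 9 dendritic cell genes 5 were tested and none was called, with 4 higher in arrested minus competent (median 0.26). Without arrested library 2, 3 of 5 were higher. The most abundant were Clec9a, a receptor for dead cells on cross-presenting dendritic cells, between 0.431 and 3.50 FPKM, and the integrin Itgax (CD11c). Itgax was at 2.66, 3.34 and 0.410 FPKM in arrested, 0.791, 0.730 and 1.16 FPKM in competent and 1.65, 0.718 and 2.48 FPKM in control libraries. It pairs with the same β2 chain as Itgam and did not share its high values in competent libraries.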
